A study of Macaca mulatta with 30 samples.

Results

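Lung RNA from 3 rhesus macaque fetuses taken 4 h after their mothers received the clinical drug was compared directly with lung RNA from 3 fetuses taken 6 h after maternal betamethasone-acetate (Beta-Ac). The clinical drug, Celestone, joins the fast-acting phosphate ester of betamethasone with the slowly released acetate ester and was given at 0.25 mg/kg, whereas Beta-Ac is the acetate ester alone and was given at 0.125 mg/kg. The 6 libraries (the clinical drug in animals 15-81, 15-85 and 15-97, and Beta-Ac in 16-123, 16-131 and 17-254) were chosen by the group labels, out of 15 lung libraries and 30 libraries in the series. The other lung groups, 3 saline animals (15-92, 15-101 and 16-113) and 3 animals per drug at 5 days, served as references. All animals were wild type, each library came from 1 fetus, every dose was an intramuscular injection into the mother, and the lung samples were labelled as gestational day 124 to 130. Dose, ester mixture, time after injection and the prefix of the animal number (15 against 16 and 17) all changed together between the groups, so their parts in any difference cannot be told apart.

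Betamethasone is a synthetic glucocorticoid that crosses the placenta and binds the glucocorticoid receptor, a transcription factor that turns on some genes by binding DNA and represses inflammatory genes in other ways. In the fetal lung, glucocorticoids are known for promoting surfactant synthesis, thinning of the airspace walls and the switch from fluid secretion to sodium-driven fluid absorption. They are also known for inhibiting cytokine signalling and for causing death or redistribution of lymphocytes.

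The 6 libraries held 14073002 (15-85) to 45033799 (15-81) reads on genes. The leading principal component of the 6 libraries carried 42.3% of their variance, and 15-85 (73.8) and 17-254 (-53.1) stood at its ends, while 15-81 (-2.6) lay between 15-97 (35.6) and the other Beta-Ac animals (-29.7 and -23.9). Counts of called genes without both of these libraries are given with the lists. The tissue label was checked against markers of lung cells. Markers of epithelium, endothelium and fibroblasts were high in each of the 6 libraries: SFTPC ranged from 3912 to 9645 CPM (read counts scaled to a common library total), NKX2-1 from 219.6 to 294.9, the type I cell gene AGER from 990 to 1895, the endothelial gene PECAM1 from 722 to 1081 and the fibroblast collagen COL1A1 from 2468 to 4356. The mesenchymal gene PDGFRA ranged from 53.31 to 68.36 CPM, and TCF21 had no match. The leukocyte gene PTPRC was lower and uneven, from 3.813 to 31.31 CPM. Genes that mark fetal sex had no entry among the tested genes (0 of 13 entries), so fetal sex could not be read from the counts. By the paper's table of animals, the fetuses of the clinical drug group at 4 h were all male, and those of the Beta-Ac group at 6 h were of both sexes. The part of sex in the differences was not tested.

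To find out which functions separated the 2 treatments, gene counts were tested with edgeR in 1 fit of all 15 lung libraries. A gene was called at p below 0.05, q below 0.1 and a fold change of at least 1.5. Of 17644 tested genes, 1189 were called (6.74%), 463 of them higher (2.62%) and 726 lower (4.11%) after the clinical drug. The median log2 difference was 0.87 among the higher and -1.06 among the lower genes, and -0.02 over all tested genes. Groups that did not overlap were found for 418 of the 463 higher and 602 of the 726 lower genes, against 22.4% of all tested genes (11.7% with each clinical drug library higher and 10.7% with each lower). The called genes were picked for a difference between these same libraries, which favours groups that do not overlap, so these counts are a description. A difference of at least 2-fold was reached by 193 higher and 397 lower genes.

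For most called genes Beta-Ac was the drug nearer to the saline animals. For 336 of the 463 higher genes and 566 of the 726 lower genes the saline mean lay nearer to Beta-Ac than to the clinical drug. Among the higher genes, saline lay below both drugs for 174, between them for 281 and above both for 8. Among the lower genes, it lay above both for 263, between them for 443 and below both for 20. The median log2 difference from saline was 0.71 after the clinical drug and -0.18 after Beta-Ac for the higher genes, and -0.91 and 0.18 for the lower genes. Against the same saline animals, 1306 genes were called after the clinical drug (7.4%), 3.46% of all genes higher and 3.94% lower. After Beta-Ac 78 were called (0.442%), 0.368% higher and 0.0737% lower.

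**Figure D1:**
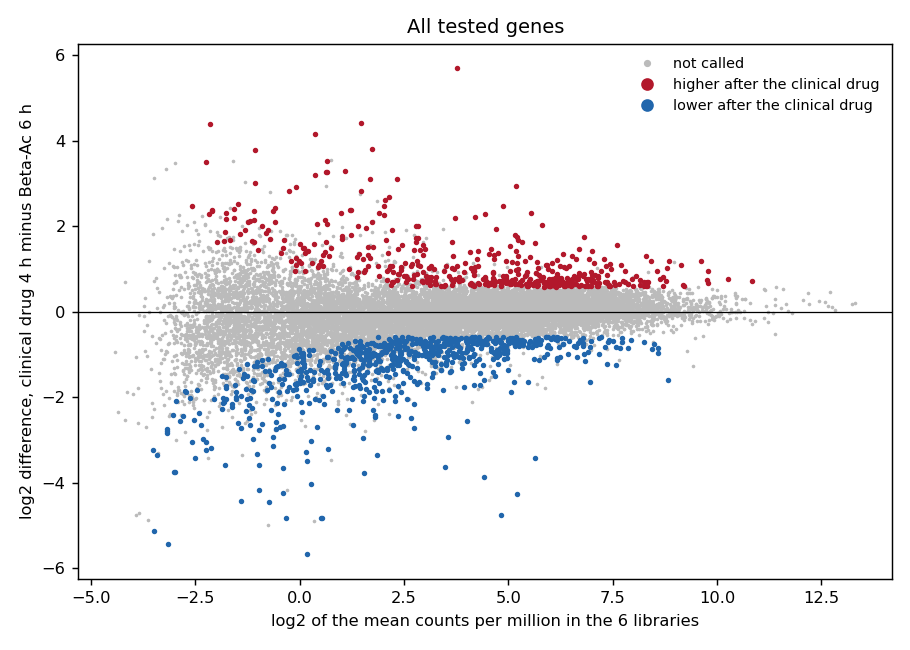
Log2 difference between the clinical drug and Beta-Ac (vertical axis) for the 17644 tested genes against the log2 of their mean CPM in the 6 libraries (horizontal axis); 463 genes called higher are red, 726 called lower are blue and the rest are grey. The called genes spread over the whole range of expression, and the lower genes outnumber the higher ones.

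By 5 days edgeR called 0 genes between the drugs, with 556 genes at an unadjusted p under 0.05, and the 463 and 726 early genes had median log2 differences of -0.02 and 0.08 there. A test of the early difference minus the 5-day difference called 416 genes (2.36%), 1.08% of all genes with a positive and 1.28% with a negative value. Among them were 141 of the 463 and 173 of the 726, which were picked for the early difference that enters this test. The early counts depended on single libraries: without 15-85 they were 340 higher and 329 lower, without 17-254 they were 368 and 484, and without both 313 and 299. With the prefix of the animal number as a further term, whose effect is set by the saline animals 15-92 and 15-101 against 16-113, edgeR called 0 genes in either direction and 1762 had an unadjusted p under 0.05.

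Of the 162 named genes that were called, 56 kept the call when any 1 of the 6 libraries was left out, and 28 kept it under every alternative except the term for the prefix of the animal number. Among the 28 were NALF2, FSTL4, RASL10B, LGI3, TAC1, PDK4, IGFBP3, HOPX, PRKCQ, CHKA, SESN1, ZNF611 and LPIN2, which were higher after the clinical drug, and CCR7, SMAD3, IKBKE, IFIT3, IRF8, PCDH12, PCDH18, KCNS3, NRP2, APLNR, UNC5C, GPR183 and LTB, which were lower. They include lipid enzymes on the higher side, and lymphocyte and endothelial genes on the lower side. In bulk tissue, fewer cells of a type and less RNA per cell cannot be told apart. Counts of called genes in a list are to be read beside 2.62% higher and 4.11% lower of all tested genes. Of the 17644 tested genes, 9281 were lower in sign. Genes of 1 list come from the same animals and can vary together, so they are not separate observations. Values below are CPM, in the order 15-81, 15-85, 15-97 (clinical drug), 16-123, 16-131, 17-254 (Beta-Ac) and 15-92, 15-101, 16-113 (saline), and q is Storey's q from edgeR over all tested genes.

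The largest differences were taken among called genes whose groups did not overlap and whose mean reached 1 CPM in the higher group. RASL10B, a small Ras-like GTPase, stood at 20.8, 17.4 and 27.2 CPM after the clinical drug, 3.59, 7.71 and 2.89 after Beta-Ac and 5.95, 4.52 and 2.66 in saline. Each clinical drug library was higher than any Beta-Ac or saline library, and the difference was 4.57-fold. RASL10B had a log2 difference of 2.19 ± 0.36 (SE, q = 0.00432). LGI3, which encodes a secreted leucine-rich repeat protein, stood at 128, 70.6 and 70.8 CPM after the clinical drug, 21.9, 17.4 and 26.7 after Beta-Ac and 6.54, 4.79 and 12 in saline. LGI3 had a log2 difference of 2.03 ± 0.30 (SE, 4.09-fold, q = 0.00297). Here both drugs lay above each saline library, Beta-Ac by 1.48 and the clinical drug by 3.52 on the log2 scale. TAC1, the precursor of substance P, stood at 8.499, 8.67 and 4.695 CPM after the clinical drug, 1.92, 1.59 and 2.36 after Beta-Ac and 1.31, 0.753 and 1.05 in saline. TAC1 had a log2 difference of 1.90 ± 0.33 (SE, 3.73-fold, q = 0.00576). FSTL4, a follistatin-like gene, stood at 9.52, 5.16 and 5.45 CPM after the clinical drug, 1.01, 0.814 and 2.41 after Beta-Ac and 0.952, 0.205 and 0.853 in saline. FSTL4 had a log2 difference of 2.26 ± 0.49 (SE, 4.8-fold, q = 0.0151). NALF2, an accessory factor of the sodium leak channel, was low everywhere, at 4.54, 1.35 and 1.06 CPM after the clinical drug, 0.101, 0.354 and 0.289 after Beta-Ac and 0.119, 0 and 0.1004 in saline. MFSD2A, the transporter of lysophosphatidylcholine, stood at 94.6, 32.3 and 39.2 CPM after the clinical drug, 12.4, 10.4 and 25.7 after Beta-Ac and 1.55, 1.37 and 2.96 in saline. MFSD2A had a log2 difference of 1.79 ± 0.46 (SE, 3.45-fold, q = 0.0286). Both drugs lay above saline, the clinical drug more so.

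The remaining large increases were less even. LY6H, at 13.5, 0.449 and 1.88 CPM after the clinical drug and 0.354, 0.248 and 0.145 after Beta-Ac, had the largest log2 difference (4.42 ± 1.44, q = 0.0613), with 15-81 far above the rest; without that library it was 2.21 and was not called. ECEL1, a membrane protease, stood at 33, 71.7 and 88.8 CPM after the clinical drug, 7.14, 9.73 and 8.102 after Beta-Ac and 41.3, 10.5 and 79.8 in saline, so that the saline libraries lay above Beta-Ac and overlapped the clinical drug. CNDP1, BNC1, NEFL and GPX6 had log2 differences of 2.35, 2.31, 1.79 and 1.78. In fits that each left out 1 library, the calls of LY6H, ECEL1, CNDP1, BNC1, NEFL and GPX6 were lost in 2 to 5 of the 6 fits.

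Of the 12 largest decreases, 7 were genes of red blood cells and their precursors (TRIM10, RHAG, ADD2, SLC4A1, ANK1 and NFE2 among them), whose highest value was in 17-254 each time and which are taken up with the erythroid list. CCR7, the chemokine receptor that guides naive T cells and dendritic cells to lymphoid tissue, stood at 1.18, 0.523 and 1.56 CPM after the clinical drug, 3.44, 9.199 and 5.11 after Beta-Ac and 6.66, 7.05 and 4.37 in saline. CCR7 had a log2 difference of -2.42 ± 0.40 (SE, q = 0.00432). Its clinical drug libraries were below every other library shown, and Beta-Ac did not stand apart from saline (-0.02 on the log2 scale). PSCA, a glycolipid-anchored surface protein of epithelia, showed the other pattern: it was at 0.0926, 0 and 0 CPM after the clinical drug and 0, 0.0685 and 0 CPM in saline, but at 0.911, 1.42 and 1.21 CPM after Beta-Ac. PSCA had a log2 difference of -4.44 ± 0.73 (SE, q = 0.00432). SCGB3A1, a secretory protein of airway cells, likewise stood at 5.58, 1.27 and 3.44 CPM after the clinical drug, 15.4, 90.2 and 106 after Beta-Ac and 2.14, 5.82 and 1.51 in saline. SCGB3A1 had a log2 difference of -4.26 ± 1.19 (SE, q = 0.0381). STMN2, a neuronal microtubule protein, was at 0.185, 0 and 0.0626 CPM after the clinical drug, 0.405, 0.884 and 2.99 after Beta-Ac and 0.0595, 0.137 and 0 in saline. For PSCA, SCGB3A1 and STMN2 Beta-Ac was the group farther from saline. CCDC170 stood at 0.185, 0 and 0 CPM after the clinical drug, 2.08, 2.34 and 4.15 after Beta-Ac and 0.297, 1.71 and 0.251 in saline. When each of the 6 libraries was left out in turn, the calls of CCR7, PSCA and CCDC170 were kept in every fit and those of TRIM10, RHAG, ADD2, SLC4A1, ANK1, NFE2, SCGB3A1 and STMN2 were lost in 1 to 4 of the 6 fits. PSCA was not called with DESeq2, and CCDC170 was not called without both 15-85 and 17-254.

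**Figure D2:**
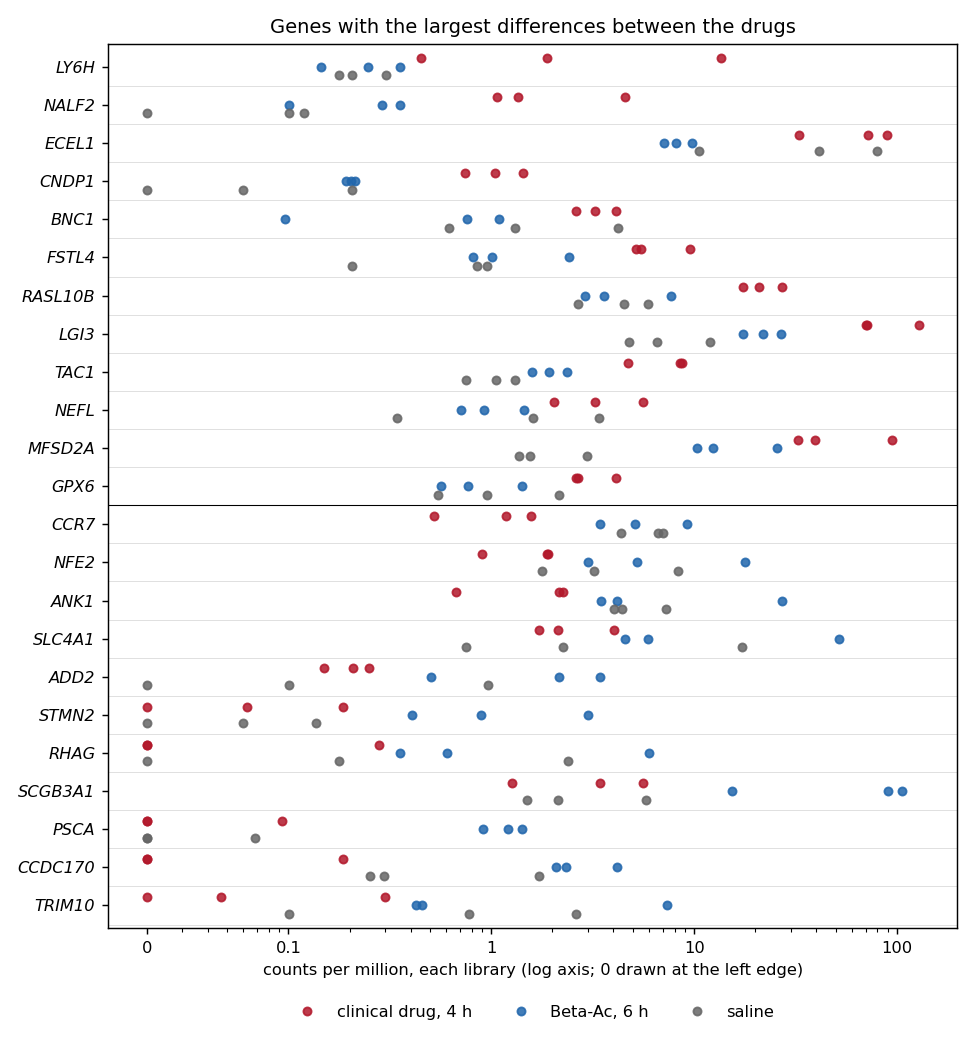
CPM of 23 of the genes with the largest differences, on a log axis with 0 drawn at the left, in each library of the clinical drug (red), Beta-Ac (blue) and saline (grey); the 12 above the line are higher and the 11 below it lower after the clinical drug. RASL10B and FSTL4 are higher in the 3 clinical drug libraries than in any other, whereas for TRIM10 and RHAG 1 Beta-Ac library, 17-254, lies above the rest.

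Genes that glucocorticoids are known to induce were higher after the clinical drug. Of 23 tested genes of this list, 8 were called higher and 0 lower between the drugs, beside 2.62% and 4.11% of all genes. The median log2 difference was 0.52, the medians over saline being 1.67 with the clinical drug and 1.00 with Beta-Ac. Against saline, 18 of the 23 rose and 1 fell after the clinical drug, and 9 rose and 0 fell after Beta-Ac. Of all tested genes, 3.46% rose and 3.94% fell against saline after the clinical drug, and 0.368% rose and 0.0737% fell after Beta-Ac. The list holds genes whose response in these animals was already known when it was made, so its direction is not independent evidence.

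FKBP5, a co-chaperone that dampens the glucocorticoid receptor, stood at 219, 120.2 and 179 CPM after the clinical drug, 18.9, 31.2 and 106 after Beta-Ac and 5.83, 5.27 and 5.72 in saline. FKBP5 had a log2 difference of 1.73 ± 0.44 (SE, 3.33-fold, q = 0.0268). The groups did not overlap, but the Beta-Ac libraries differed among themselves, with 17-254 at 106 CPM near the clinical drug and the others at 18.9 and 31.2 CPM. PDK4, which restrains glucose oxidation by inhibiting pyruvate dehydrogenase, followed the same order at 359, 238 and 278 CPM after the clinical drug, 90.9, 53.4 and 153 after Beta-Ac and 39.02, 14.6 and 29.5 in saline. PDK4 had a log2 difference of 1.56 ± 0.39 (SE, 2.95-fold, q = 0.0268). TFCP2L1, an epithelial transcription factor, was at 27.7, 15.8 and 13.3 CPM after the clinical drug and 5.46, 3.64 and 9.36 after Beta-Ac. TFCP2L1 had a log2 difference of 1.63 ± 0.55 (SE, q = 0.0671). NFKBIA, which holds NF-kappaB in the cytoplasm, was at 413, 360 and 413 CPM after the clinical drug, 172, 224 and 342 after Beta-Ac and 138, 121 and 113 in saline (log2 difference 0.69 ± 0.20 (SE), q = 0.0469), with 17-254 again the highest of the Beta-Ac libraries. SESN1, a stress-induced inhibitor of growth signalling, stood at 195, 176 and 177 CPM after the clinical drug, 95.3, 112 and 102 after Beta-Ac and 109.8, 87.9 and 112 in saline. SESN1 had a log2 difference of 0.83 ± 0.11 (SE, q = 0.00138). Beta-Ac did not stand apart from saline for this gene (-0.01 on the log2 scale, 95.3, 112 and 102 against 109.8, 87.9 and 112 CPM). With single libraries removed, the calls of FKBP5, PDK4 and SESN1 were kept in every fit and those of TFCP2L1 and NFKBIA were lost in 2 to 4 of the 6 fits.

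Of the classic targets, ZBTB16 and PER1 rose over saline with both drugs and were not called between them. ZBTB16, a zinc finger transcription factor, stood at 267, 126 and 216 CPM after the clinical drug, 101, 86.4 and 183 after Beta-Ac and 12.1, 12.2 and 4.12 in saline (log2 difference 0.71 ± 0.37 (SE), q = 0.183), and PER1, a clock gene with glucocorticoid-responsive enhancers, at 836, 695 and 732 CPM after the clinical drug, 454, 506 and 619 after Beta-Ac and 161, 201 and 96.5 in saline. PER1 had a log2 difference of 0.52 ± 0.27 (SE, q = 0.182). SGK1, the kinase that stabilises the epithelial sodium channel, was at 135, 114 and 194 CPM after the clinical drug, 65.3, 168 and 104 after Beta-Ac and 89.6, 66.6 and 102 in saline, with overlapping groups. SGK1 had a log2 difference of 0.39 ± 0.41 (SE, q = 0.386). Without 15-85 and 17-254 the list had 12 genes called higher and a median of 1.03, and leaving out single libraries gave 5 to 11. Without 17-254 alone, whose mean deviation of the list from saline (1.75) lay among those of the clinical drug (1.48 to 2.10) rather than near the other Beta-Ac libraries (0.98 and 1.00), the count was 11 and the median 0.95.

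**Figure D3:**
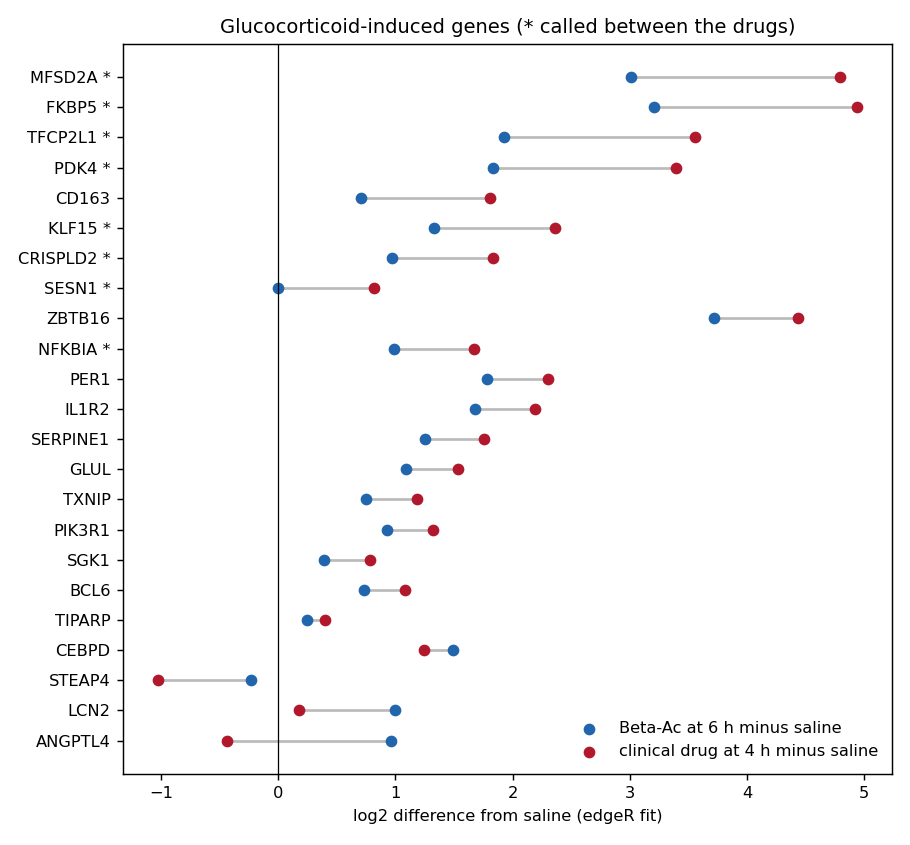
Log2 difference from saline of the 23 glucocorticoid-induced genes after the clinical drug (red) and Beta-Ac (blue), each from the edgeR fit with the same 3 saline animals; asterisks mark the 8 genes called between the drugs. The red point lies to the right of the blue point for 19 of 23 genes, and the widest gaps among the called genes are those of MFSD2A, FKBP5, TFCP2L1 and PDK4.

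The glucocorticoid receptor itself was not called between the drugs. NR3C1, the glucocorticoid receptor, stood at 82.8, 62.4 and 66.6 CPM after the clinical drug and 88.8, 75.7 and 87.6 after Beta-Ac (log2 difference -0.25 ± 0.15 (SE), q = 0.227) and did not pass the test. NR3C2, the mineralocorticoid receptor, which also binds glucocorticoids, was lower, at 7.78, 4.19 and 5.82 CPM after the clinical drug, 12.4, 9.59 and 14.4 after Beta-Ac and 8.86, 10.5 and 12.8 in saline. NR3C2 had a log2 difference of -1.01 ± 0.23 (SE, q = 0.0176). HSD11B2, the enzyme that inactivates cortisol, was higher, at 49.8, 97.1 and 70.7 CPM after the clinical drug and 38.4, 57.5 and 28.1 after Beta-Ac (log2 difference 0.80 ± 0.26 (SE), q = 0.0609), with overlapping groups. HSP90AB1, a chaperone of the receptor, was lower at 24.7, 28.9 and 27.1 CPM after the clinical drug and 38.6, 40.02 and 45.4 after Beta-Ac (log2 difference -0.62 ± 0.16 (SE), q = 0.0267), with each Beta-Ac library above each saline library. Of 15 tested genes of the receptor and its handling, these were the 1 higher (6.67%) and 2 lower (13.3%), beside 2.62% and 4.11% of all genes. Of the circadian clock list, 13.3% were called higher and 0% lower. In the circadian clock list 2 of 15 genes were higher and 0 lower: HLF, an output transcription factor, at 76.5, 53.99 and 40.9 CPM after the clinical drug and 29.8, 38.7 and 21.4 after Beta-Ac (log2 difference 0.93 ± 0.23 (SE), q = 0.0233), and PER2, at 40.2, 21.1 and 20.5 CPM after the clinical drug and 15.4, 20.5 and 11.48 after Beta-Ac (log2 difference 0.80 ± 0.27 (SE), q = 0.0715), for which 15-81 stood apart. Under removal of 1 library at a time, the calls of NR3C2 and HLF were kept in every fit and those of HSD11B2, HSP90AB1 and PER2 were lost in 2 to 4 of the 6 fits.

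The lists of type II and type I cells held few called genes, 0% and 7.14% of those tested, beside 6.74% of all genes. Of 15 type II cell and surfactant genes edgeR called 0 (3 at an unadjusted p under 0.05), as did DESeq2 and limma-voom, and the list's median log2 difference was 0.17. SFTPC, the surfactant protein made by type II cells, stood at 9645, 5697 and 7775 CPM after the clinical drug, 7053, 3912 and 5925 after Beta-Ac and 2708, 2730 and 5096 in saline. SFTPC had a log2 difference of 0.45 ± 0.27 (SE, q = 0.229). SFTPB, the surfactant protein that spreads the lipid film, stood at 6186, 4112 and 4813 CPM after the clinical drug and 4339, 3023 and 5947 after Beta-Ac. ABCA3, the lamellar body lipid transporter, was at 437, 332 and 382 CPM after the clinical drug and 336, 219.7 and 417 after Beta-Ac, and the collectin SFTPD was at 1200, 947 and 1090 CPM after the clinical drug and 1222, 975 and 1146 after Beta-Ac. NKX2-1, the transcription factor of lung epithelium, was at 275, 295 and 250.3 CPM after the clinical drug and 294, 219.6 and 293 after Beta-Ac. The drug groups overlapped for all 4. HOPX, a homeodomain protein of type I cells, was the 1 called gene of 14 in the type I list. It stood at 372, 554 and 505 CPM after the clinical drug, 176, 249 and 206 after Beta-Ac and 227, 176 and 180.2 in saline. HOPX had a log2 difference of 1.18 ± 0.15 (SE, 2.26-fold, q = 0.00138). Each clinical drug library was above the 6 others, and Beta-Ac lay at the saline level. AGER, another type I gene, had a log2 difference of 0.17 (q = 0.508) and is given for comparison, chosen after its value was seen.

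Among 28 genes of sodium, chloride and water transport 5 were higher (17.9%) and 1 lower (3.57%), beside 2.62% and 4.11% of all genes. SLC26A9, an epithelial chloride channel, was at 36.4, 52.1 and 52.96 CPM after the clinical drug, 25.05, 14.7 and 23.4 after Beta-Ac and 6.96, 7.87 and 13.9 in saline (log2 difference 1.16 ± 0.31 (SE), q = 0.0333), and SLC26A4, an anion exchanger, was below 2 CPM throughout, at 0.741, 1.196 and 0.751 CPM after the clinical drug and 0.202, 0.318 and 0.193 after Beta-Ac. SLC26A4 had a log2 difference of 1.84 ± 0.42 (SE, q = 0.0193). SCNN1A, the alpha subunit of the epithelial sodium channel, was at 330.1, 397 and 316 CPM after the clinical drug, 163, 287 and 227 after Beta-Ac and 204, 133 and 126 in saline. SCNN1A had a log2 difference of 0.62 ± 0.21 (SE, q = 0.0723). SLC9A3, a sodium-proton exchanger, was the lower gene, at 3.03, 1.495 and 2.07 CPM after the clinical drug and 4.05, 3.79 and 4.58 after Beta-Ac. SLC9A3 had a log2 difference of -0.88 ± 0.29 (SE, q = 0.0641). After leaving out each library in turn, the calls of SLC26A9 and SLC26A4 were kept in every fit and those of SCNN1A and SLC9A3 were lost in 4 of the 6 fits.

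In the list of phosphatidylcholine, fatty acid and sterol synthesis 3 of 44 genes were higher (6.82%) and 1 lower (2.27%). The list's median log2 difference was 0.01. In the list of fasting and lipid oxidation 3.57% were called each way. Of all genes 2.62% were higher and 4.11% lower. CHKA, choline kinase, which starts phosphatidylcholine synthesis, stood at 204, 189 and 196 CPM after the clinical drug, 90.1, 85.4 and 131 after Beta-Ac and 65.6, 65.8 and 71.1 in saline. CHKA had a log2 difference of 0.94 ± 0.13 (SE, 1.92-fold, q = 0.0016). LPIN2, a phosphatidate phosphatase, stood at 426, 375 and 324 CPM after the clinical drug, 201, 215 and 277 after Beta-Ac and 145, 185 and 132 in saline. LPIN2 had a log2 difference of 0.70 ± 0.14 (SE, q = 0.0115). For both, the groups separated fully and Beta-Ac lay between saline and the clinical drug. MFSD2A was the third higher gene, and PCYT1B, an isoform of the enzyme that makes CDP-choline, was lower at 2.48, 2.17 and 3.88 CPM after the clinical drug and 4.45, 6.58 and 3.76 after Beta-Ac (log2 difference -0.80 ± 0.27 (SE), q = 0.0652), with overlap. Of 28 genes of fasting and lipid oxidation PDK4 was higher and PDK1, a related kinase, was lower at 1.55, 0.523 and 1.06 CPM after the clinical drug and 3.09, 1.66 and 4.15 after Beta-Ac. PDK1 had a log2 difference of -1.43 ± 0.41 (SE, q = 0.0411). In fits that each left out 1 library, the calls of CHKA, LPIN2, MFSD2A and PDK4 were kept in every fit and those of PCYT1B and PDK1 were lost in 2 to 3 of the 6 fits.

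Lymphocyte genes were lower after the clinical drug. Of 33 tested T lymphocyte genes 11 were lower and 1 was higher, with a median log2 difference of -0.92 beside -0.02 for all genes; relative to saline the median was -0.99 after the clinical drug and -0.07 after Beta-Ac. BCL11B, a transcription factor of the T lineage, was below 2 CPM in every library, at 0.116, 0 and 0.2504 CPM after the clinical drug and 0.658, 0.708 and 1.302 after Beta-Ac. BCL11B had a log2 difference of -2.78 ± 0.71 (SE, q = 0.0273). CD3E, a subunit of the T cell receptor complex named after its value was seen, stood at 1.18, 0.523 and 2.38 CPM after the clinical drug, 2.98, 6.72 and 6.896 after Beta-Ac and 6.48, 7.53 and 3.46 in saline. CD3E had a log2 difference of -2.02 ± 0.48 (SE, q = 0.0221). IL2RB, a subunit of the interleukin 2 and 15 receptors, was at 4.19, 1.27 and 3.69 CPM after the clinical drug and 5.01, 8.92 and 6.896 after Beta-Ac. IL2RB had a log2 difference of -1.15 ± 0.37 (SE, q = 0.0597). For CCR7 and CD3E each clinical drug library lay below every Beta-Ac and saline library. The member that rose was PRKCQ, a protein kinase C known from T cell signalling and muscle, at 67.6, 78.7 and 65.1 CPM after the clinical drug, 28.4, 34.2 and 40.99 after Beta-Ac and 21.8, 18.8 and 19.6 in saline (2.04-fold, log2 difference 1.03 ± 0.16 (SE), q = 0.00313), in a range well above that of the T cell receptor genes. When each of the 6 libraries was left out in turn, the calls of BCL11B, CCR7 and PRKCQ were kept in every fit and that of IL2RB was lost in 3 of the 6 fits.

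The decrease varied between animals. The mean log2 deviation of the T lymphocyte list from saline ran from -1.28 to -0.41 in the clinical drug libraries, lowest in 15-85, from -0.25 to 0.19 in the Beta-Ac libraries and from -0.35 to 0.18 in the saline libraries. Summed over the list, CPM did not fall (451.4 to 567.6 after the clinical drug, 404.3 to 484.1 after Beta-Ac and 434.2 to 491.2 in saline), with abundant members such as PRKCQ, FYN and IL7R, of which the last 2 are named after their values were seen, at log2 differences of 1.03, 0.49 and 0.71. Without 15-85 the list had 8 genes lower, and without 15-85 and 17-254 it had 5. B lymphocyte genes were lower in sign for 12 of 12, and 2 were called, among them FCRL1, at 0.556, 0.972 and 1.56 CPM after the clinical drug and 1.72, 2.3 and 2.27 after Beta-Ac. FCRL1 had a log2 difference of -1.07 ± 0.40 (SE, q = 0.0914). Both B cell calls were lost when any 1 library other than 15-97 was left out. Of 12 natural killer and cytotoxic genes, NCR3 was called lower (log2 difference -1.17 ± 0.42 (SE), q = 0.0828), at 0.232, 0.449 and 0.2504 CPM after the clinical drug and 0.658, 0.637 and 0.723 after Beta-Ac, and its call was lost in 5 of the 6 fits that left out 1 library and with DESeq2. GPR183, an oxysterol receptor that positions B cells and dendritic cells, stood at 0.926, 0.897 and 0.939 CPM after the clinical drug, 4.91, 3.72 and 2.89 after Beta-Ac and 4.402, 2.88 and 2.76 in saline (log2 difference -2.05 ± 0.40 (SE), q = 0.00898), and LTB, a lymphotoxin subunit needed to build lymphoid tissue, at 0.509, 0.299 and 0.438 CPM after the clinical drug, 1.67, 2.09 and 1.98 after Beta-Ac and 1.903, 2.94 and 1.305 in saline (log2 difference -2.14 ± 0.36 (SE), q = 0.00503), both with the clinical drug libraries below all others.

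Antigen presentation and myeloid genes were called in the same direction. Of 10 genes of MHC class II presentation 3 were called lower and all 10 were lower in sign, with a median log2 difference of -0.55 (-0.83 without 17-254). The list deviated from saline by -1.22 in 15-85, -0.49 in 15-81 and -0.24 in 15-97, and by -0.25 in 17-254, 0.13 in 16-123 and 0.53 in 16-131, so the groups overlapped at 15-97 and 17-254. CIITA, the transactivator that switches on class II genes, stood at 3.47, 2.32 and 3.69 CPM after the clinical drug, 8.804, 11.6 and 5.401 after Beta-Ac and 8.15, 8.76 and 9.79 in saline (log2 difference -1.44 ± 0.27 (SE), q = 0.00816), and CD74, the invariant chain, at 64.8, 23.2 and 57.5 CPM after the clinical drug, 100.1, 130 and 74.7 after Beta-Ac and 90.3, 94.2 and 63.5 in saline. CD74 had a log2 difference of -1.06 ± 0.29 (SE, q = 0.0367). MAMU-DMB, a macaque class II gene whose reads may be shared with related genes, was at 7.02, 5.68 and 11.02 CPM after the clinical drug and 13.5, 17.8 and 13.9 after Beta-Ac. MAMU-DMB had a log2 difference of -0.93 ± 0.22 (SE, q = 0.0218). Of 23 macrophage and monocyte genes 4 were lower and 0 higher. IRF8, a transcription factor of dendritic cells and monocytes, stood at 7.85, 7.93 and 10.3 CPM after the clinical drug, 16.9, 19.3 and 14.3 after Beta-Ac and 21.9, 26.01 and 18.5 in saline (log2 difference -0.96 ± 0.16 (SE), q = 0.0045), and CTSS, a protease of antigen processing, at 9.402, 5.91 and 5.696 CPM after the clinical drug and 12.2, 13.6 and 13.2 after Beta-Ac. CTSS had a log2 difference of -0.87 ± 0.22 (SE, q = 0.0264). CD86 and FOLR2 had log2 differences of -0.98 and -1.03. The macrophage list deviated from saline by -1.14 in 15-85, against -0.10 and -0.01 in the other clinical drug libraries and -0.03 to 0.26 after Beta-Ac, and without 15-85 it had 2 genes lower and 1 higher. Without both 15-85 and 17-254 the macrophage list had 1 gene lower and 2 higher. CD163, a macrophage receptor that glucocorticoids induce and that is named here after its value was seen, had a log2 difference of 1.1 (q = 0.111) in the other direction. MPO, FCER1A and LTF were the 3 of 14 granulocyte and mast cell genes called, all lower (-2.62, -1.71 and -0.74 on the log2 scale), and the calls of all 3 were lost without 15-85, without 15-97 and without 16-131.

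**Figure D4:**
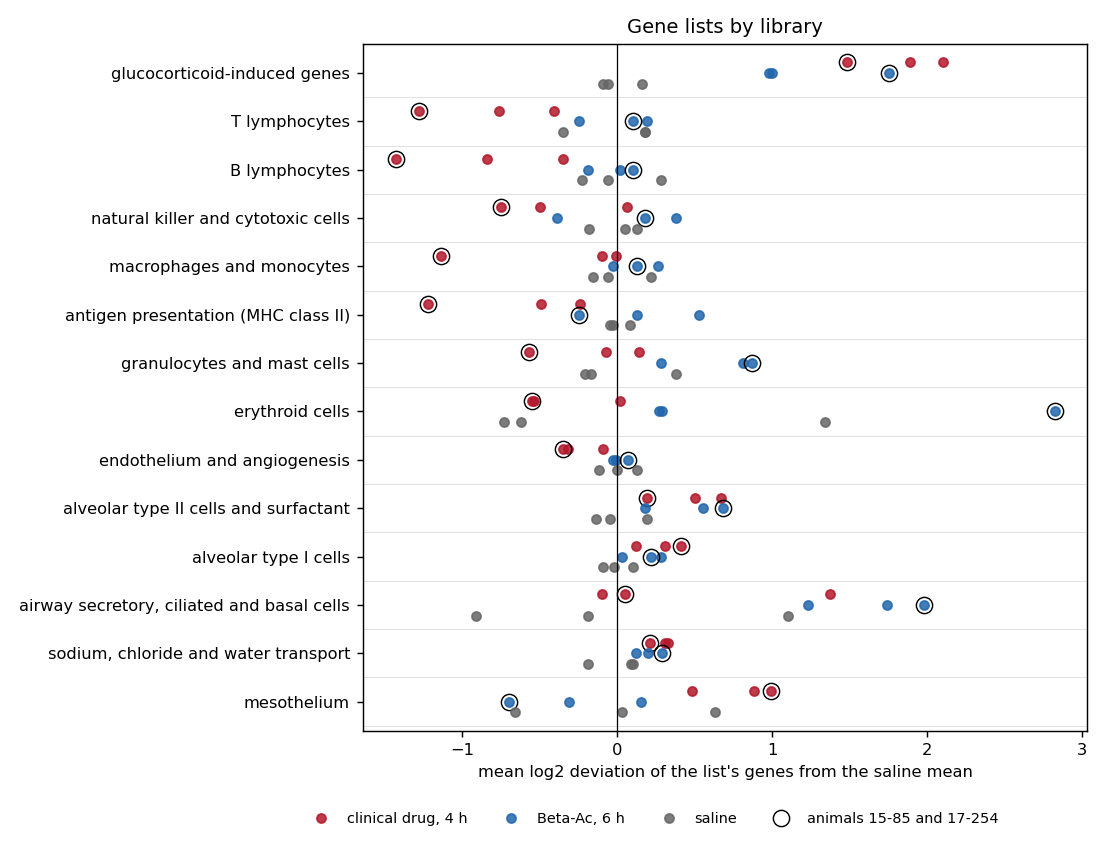
Mean log2 deviation from the saline mean of the genes of 14 lists (horizontal axis) in each library of the clinical drug (red), Beta-Ac (blue) and saline (grey), with 15-85 and 17-254 ringed. T lymphocyte genes were lower in the 3 clinical drug libraries (-1.28 to -0.41) than in the Beta-Ac libraries (-0.25 to 0.19), and the erythroid list stood at 2.82 in 17-254.

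Cytokine and NF-kappaB genes gave a mixed picture with more decreases. Of 64 interleukins, tumour necrosis factors and receptors 9 were lower and 3 higher. Among the lower were LTB, IL2RB and IL21R (-1.76 ± 0.52 on the log2 scale). The higher genes were IL6ST, the shared signalling chain of the interleukin 6 family, at 495, 322 and 376 CPM after the clinical drug and 227, 257 and 258 after Beta-Ac (log2 difference 0.69 ± 0.15 (SE), q = 0.0175), its partner OSMR, at 127, 73.5 and 91.2 CPM after the clinical drug and 51.9, 50.2 and 89.4 after Beta-Ac (log2 difference 0.61 ± 0.22 (SE), q = 0.0824), and IL18R1, at 5.396, 3.36 and 4.44 CPM after the clinical drug and 0.8096, 2.19 and 2.27 after Beta-Ac. IL18R1 had a log2 difference of 1.32 ± 0.49 (SE, q = 0.0911). In the NF-kappaB list 5 of 43 genes were lower beside the increase of NFKBIA: RELB, a subunit of NF-kappaB, at 3.73, 4.93 and 5.45 CPM after the clinical drug, 8.298, 9.84 and 8.63 after Beta-Ac and 12.4, 12.7 and 8.68 in saline (log2 difference -0.94 ± 0.19 (SE), q = 0.0102), IKBKE, an upstream kinase, at 21.1, 16.8 and 24.2 CPM after the clinical drug, 40.9, 38.2 and 36.2 after Beta-Ac and 40.2, 42.1 and 44.1 in saline (log2 difference -0.89 ± 0.14 (SE), q = 0.0036), and NFKBIE, IRAK2 and TLR4, with log2 differences of -0.69, -1.12 and -1.06. For RELB and IKBKE every clinical drug library was below the Beta-Ac and saline libraries. With single libraries removed, the calls of LTB, RELB, IKBKE and IRAK2 were kept in every fit and those of IL2RB, IL21R, IL6ST, OSMR, IL18R1, NFKBIA, NFKBIE and TLR4 were lost in 1 to 6 of the 6 fits.

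Of 27 chemokines and receptors 4 were lower (14.8%) and 0 higher, beside 4.11% and 2.62% of all genes. CCL2, the monocyte attractant, stood at 2.92, 1.42 and 3.76 CPM after the clinical drug, 7.59, 8.95 and 2.797 after Beta-Ac and 13.5, 14.4 and 10.3 in saline (log2 difference -1.24 ± 0.42 (SE), q = 0.0668); the Beta-Ac library 17-254 lay within the clinical drug range. CCL8 and CCL13, of the same family, had log2 differences of -3.48 and -2.24 at levels mostly below 1 CPM, and 16-131 stood highest for CCL8, at 5.48 CPM. Of 43 interferon response genes 3 were lower (6.98%) and 0 higher, with a median log2 difference of -0.20. Without 16-131 there were 1 lower and 2 higher and the median was 0.10. IFIT3, which restrains viral RNA, stood at 93.6, 65.2 and 88.9 CPM after the clinical drug, 144, 184 and 148 after Beta-Ac and 119, 186 and 142 in saline (log2 difference -0.94 ± 0.20 (SE), q = 0.0132), BST2 at 28.6, 24.2 and 24.8 CPM after the clinical drug and 40.02, 56.4 and 30 after Beta-Ac (log2 difference -0.70 ± 0.22 (SE), q = 0.0529) and IRF1 at 24.4, 24.97 and 37.2 CPM after the clinical drug and 41.9, 52.7 and 35.4 after Beta-Ac. IRF1 had a log2 difference of -0.59 ± 0.17 (SE, q = 0.0422). Of 28 complement and coagulation genes C7 was higher, at 2111, 1062 and 1478 CPM after the clinical drug and 1149, 785 and 792 after Beta-Ac (log2 difference 0.77 ± 0.23 (SE), q = 0.0462), and CFP, C5AR1, F8 and F13A1 were lower (-0.80, -0.95, -0.90 and -1.01 on the log2 scale); the 4 lower calls were lost without 15-85 and without 15-97. Under removal of 1 library at a time, the call of IFIT3 was kept in every fit and those of CCL2, CCL8, CCL13, BST2, IRF1, C7, CFP, C5AR1, F8 and F13A1 were lost in 2 to 5 of the 6 fits.

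Of 60 genes of endothelium and angiogenesis 10 were lower and 1 higher after the clinical drug, and leaving out single libraries gave 8 to 13 lower. The list's median log2 difference was -0.20, and its summed CPM overlapped, at 14160 to 18240 after the clinical drug, 15150 to 15390 after Beta-Ac and 15580 to 16930 in saline. APLNR, the receptor for apelin on growing vessels, stood at 49.4, 60.8 and 70.99 CPM after the clinical drug, 209, 194 and 161 after Beta-Ac and 180.1, 224 and 200.4 in saline (0.321 times the Beta-Ac level, log2 difference -1.64 ± 0.19 (SE), q = 0.00128). The clinical drug libraries lay far below the others, which overlapped one another. NRP2, a co-receptor for vascular endothelial growth factors and semaphorins, was at 13.5, 8.82 and 9.45 CPM after the clinical drug, 35.8, 23.2 and 38.3 after Beta-Ac and 21.8, 18.4 and 23.6 in saline. NRP2 had a log2 difference of -1.60 ± 0.25 (SE, q = 0.00361). PROX1, the transcription factor of lymphatic endothelium, was at 0.857, 0.972 and 0.626 CPM after the clinical drug, 2.33, 2.12 and 2.12 after Beta-Ac and 1.13, 2.396 and 2.16 in saline. PROX1 had a log2 difference of -1.41 ± 0.33 (SE, q = 0.0196). KDR, the main receptor for vascular endothelial growth factor and named after its value was seen, was at 311, 205 and 304 CPM after the clinical drug, 491, 444 and 554 after Beta-Ac and 582, 632 and 622 in saline. KDR had a log2 difference of -0.86 ± 0.14 (SE, q = 0.00361). The endothelin receptor EDNRB went the other way, at 1238, 591 and 1408 CPM after the clinical drug, 566, 461 and 401 after Beta-Ac and 760.2, 466 and 382 in saline. EDNRB had a log2 difference of 1.18 ± 0.30 (SE, 2.27-fold, q = 0.0273). The general endothelial markers PECAM1 and CDH5 were not called, with log2 differences of 0.11 (q = 0.402) and -0.14 (q = 0.382), both chosen after their values were seen. In the list of pericytes and smooth muscle RGS5, a pericyte gene, was the 1 of 18 called (5.56%, beside 4.11% of all genes called lower). It was lower at 262, 261 and 261 CPM after the clinical drug, 318, 646 and 573 after Beta-Ac and 478, 598 and 621 in saline. RGS5 had a log2 difference of -0.97 ± 0.27 (SE, q = 0.0363). After leaving out each library in turn, the calls of APLNR, NRP2, PROX1, EDNRB and RGS5 were kept in every fit.

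Cell adhesion genes were called in both directions. Of 35 cadherins and protocadherins 5 were lower (14.3%) and 1 higher (2.86%), beside 4.11% and 2.62% of all genes. PCDH12, an endothelial protocadherin, stood at 102, 69.2 and 117 CPM after the clinical drug, 192, 219 and 158 after Beta-Ac and 245, 264 and 234 in saline (log2 difference -0.98 ± 0.16 (SE), q = 0.00452), and PCDH18 at 69.2, 64.6 and 89.9 CPM after the clinical drug, 159, 137 and 150.1 after Beta-Ac and 182, 217 and 185 in saline (log2 difference -1.0 ± 0.16 (SE), q = 0.0044), in each case with the groups separate and Beta-Ac somewhat below saline. CDH11, the cadherin of fibroblasts, was at 97.2, 115 and 169.6 CPM after the clinical drug and 266, 239.6 and 118 after Beta-Ac (log2 difference -0.71 ± 0.26 (SE), q = 0.089), where 17-254 overlapped the clinical drug. CDH2, neural cadherin, was the higher gene. CDH2 had a log2 difference of 1.37 ± 0.46 (SE, q = 0.0686). GJA5, the connexin of arterial endothelium, was lower at 46.1, 55.6 and 72.5 CPM after the clinical drug and 165, 98.5 and 80.6 after Beta-Ac (log2 difference -0.98 ± 0.27 (SE), q = 0.0345), while GJA1, a more widely used connexin, was higher at 286, 324 and 458 CPM after the clinical drug and 203, 307 and 130.3 after Beta-Ac (log2 difference 0.74 ± 0.25 (SE), q = 0.0741), with overlap. The integrins ITGB7 and ITGAL, which leukocytes use, were the 2 of 28 called (7.14% lower), with log2 differences of -1.15 and -1.21. In fits that each left out 1 library, the calls of PCDH12, PCDH18 and ITGB7 were kept in every fit and those of CDH11, CDH2, GJA5, GJA1 and ITGAL were lost in 2 to 4 of the 6 fits.

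Among the lists of growth factor signalling and patterning, the share called lower was 12.8% for bone morphogenetic proteins, 15.4% for hedgehog, 11.1% for Notch, 5% for fibroblast growth factors and 2.08% for Wnt, beside 4.11% of all genes. Of 47 genes of bone morphogenetic protein and transforming growth factor beta signalling 6 were lower and 0 higher. SMAD3, the signal transducer of transforming growth factor beta, stood at 54.9, 36.6 and 44.8 CPM after the clinical drug, 88.4, 75.1 and 70.4 after Beta-Ac and 76.4, 77.6 and 82.7 in saline. SMAD3 had a log2 difference of -0.77 ± 0.13 (SE, q = 0.00452). BMP3 was at 12.3, 12.4 and 7.64 CPM after the clinical drug, 27.2, 15.3 and 19.8 after Beta-Ac and 41.7, 32.6 and 33.9 in saline (log2 difference -0.94 ± 0.24 (SE), q = 0.027) and BMP7 at 4.17, 4.19 and 8.26 CPM after the clinical drug, 17.5, 15.2 and 7.33 after Beta-Ac and 15.6, 13.6 and 15.3 in saline. BMP7 had a log2 difference of -1.28 ± 0.31 (SE, q = 0.0232). ID1, ID4 and CHRDL1 had log2 differences of -0.85, -1.08 and -0.69. The hedgehog transcription factors GLI3 (log2 difference -0.82 ± 0.22 (SE), q = 0.035) and GLI2 (log2 difference -0.68 ± 0.23 (SE), q = 0.0665) were the 2 of 13 called in that list. NRARP, HES4 and LFNG were the 3 of 27 Notch genes called, with log2 differences of -0.89, -0.83 and -0.67, and FGFR2, the epithelial fibroblast growth factor receptor, the 1 of 20 in its list, at 187, 185 and 125 CPM after the clinical drug and 294, 202 and 265 after Beta-Ac. FGFR2 had a log2 difference of -0.61 ± 0.19 (SE, q = 0.0509). In the Wnt list of 48 FRZB, a secreted inhibitor, was higher (log2 difference 0.83 ± 0.25 (SE), q = 0.0454) and WNT7B, an epithelial ligand, lower. WNT7B had a log2 difference of -0.91 ± 0.31 (SE, q = 0.0706). When each of the 6 libraries was left out in turn, the calls of SMAD3, BMP3 and BMP7 were kept in every fit and those of ID1, ID4, CHRDL1, GLI3, GLI2, NRARP, HES4, LFNG, FGFR2, FRZB and WNT7B were lost in 2 to 4 of the 6 fits.

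Of 59 axon guidance genes, many of which also act in vessels and epithelium, 7 were lower (11.9%) and 0 higher. For the lung lineage and matrix lists below, 11.5% and 7.14% of genes were lower and 0% and 4.29% higher. Of all genes 4.11% were lower and 2.62% higher. UNC5C, a netrin receptor, stood at 3.66, 1.64 and 1.44 CPM after the clinical drug, 12.2, 8.46 and 8.44 after Beta-Ac and 6.54, 4.66 and 10.1 in saline (log2 difference -2.04 ± 0.39 (SE), q = 0.00828), and EPHB1, an ephrin receptor, at 1.598, 2.17 and 3.07 CPM after the clinical drug, 5.97, 6.44 and 4.82 after Beta-Ac and 9.99, 10.6 and 8.23 in saline. EPHB1 had a log2 difference of -1.36 ± 0.28 (SE, q = 0.012). Among 26 lung lineage transcription factors FOXF2 of the mesenchyme (log2 difference -0.71 ± 0.18 (SE), q = 0.0254), ELF3 (log2 difference -1.14 ± 0.33 (SE), q = 0.0441) and FOXP2 (log2 difference -0.65 ± 0.20 (SE), q = 0.0542) were lower and 0 were higher. The matrix list of 70 was divided: MMP7, an epithelial protease, was at 196, 298 and 169 CPM after the clinical drug and 138, 61 and 84.9 after Beta-Ac (log2 difference 1.22 ± 0.39 (SE), q = 0.0589) and MMP19 at 139, 132 and 149 CPM after the clinical drug, 61.3, 67.9 and 107 after Beta-Ac and 49.8, 43.6 and 52.4 in saline (log2 difference 0.83 ± 0.17 (SE), q = 0.0106), both higher, as was MMP24 (1.07), whereas COL5A1 (-1.23), ADAMTS12 (-0.80) and MMP15 (-0.79) were among 5 lower. COL5A1 was at 109.8, 76.9 and 111 CPM after the clinical drug and 146, 187 and 363 after Beta-Ac, with 17-254 the highest library. With single libraries removed, the calls of UNC5C, EPHB1 and MMP19 were kept in every fit and those of FOXF2, ELF3, FOXP2, MMP7, MMP24, COL5A1, ADAMTS12 and MMP15 were lost in 1 to 3 of the 6 fits.

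Cell cycle genes were called in both directions, 5.33% each way beside 2.62% higher and 4.11% lower of all genes. Of 75 genes 4 were higher and 4 lower, and leaving out single libraries gave 1 to 3 higher (1 without 15-97) and 2 (without 17-254) to 9 (without 16-123) lower. CCND1, the G1 cyclin, was at 62.8, 93.5 and 90.4 CPM after the clinical drug, 120.2, 143 and 124 after Beta-Ac and 163, 144 and 184 in saline (log2 difference -0.65 ± 0.18 (SE), q = 0.0381), and CDK6, its kinase partner, at 2.48, 2.84 and 2.69 CPM after the clinical drug, 7.89, 4.32 and 13.2 after Beta-Ac and 3.39, 4.38 and 3.36 in saline (log2 difference -1.66 ± 0.33 (SE), q = 0.0103), where Beta-Ac was farther from saline. POLE2, ECT2 and CCNE2, of replication, cytokinesis and S phase entry, were higher, at log2 differences of 0.92, 0.65 and 0.63, and E2F2, a transcription factor of S phase genes, was lower (-1.27). In the list of cell cycle inhibitors and cell death of 20 genes, SESN1 and BNIP3 were the 2 called. IGFBP3, which sequesters insulin-like growth factors, stood at 132, 165 and 95.6 CPM after the clinical drug, 52.3, 32.4 and 75.4 after Beta-Ac and 44.9, 32.04 and 35.5 in saline. IGFBP3 had a log2 difference of 1.30 ± 0.30 (SE, 2.46-fold, q = 0.0203), and IGFALS and STC2 of the same list of 14 were lower (-0.74 and -0.97). In the hypoxia and glycolysis list of 27, BNIP3 was higher (0.61), and EGLN3, an oxygen-sensing enzyme that hypoxia induces, was lower at 90.7, 66.7 and 109 CPM after the clinical drug, 154, 140.3 and 181 after Beta-Ac and 141, 185 and 165 in saline (log2 difference -0.83 ± 0.26 (SE), q = 0.0528), as were CA12 and PDK1. Under removal of 1 library at a time, the calls of CDK6, SESN1 and IGFBP3 were kept in every fit and those of CCND1, POLE2, ECT2, CCNE2, E2F2, BNIP3, IGFALS, STC2, EGLN3, CA12, PDK1 and NDUFA4 were lost in 1 to 4 of the 6 fits. Lists of nuclear oxidative phosphorylation genes (1 of 32, NDUFA4, log2 difference 0.83 ± 0.21 (SE), q = 0.0271), ribosomal proteins (0 of 60) and immediate early genes (0 of 26) held few or no called genes. For the last 2 lists edgeR gave 4 and 5 genes at an unadjusted p under 0.05, and DESeq2 and limma-voom called 0.

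**Figure D5:**
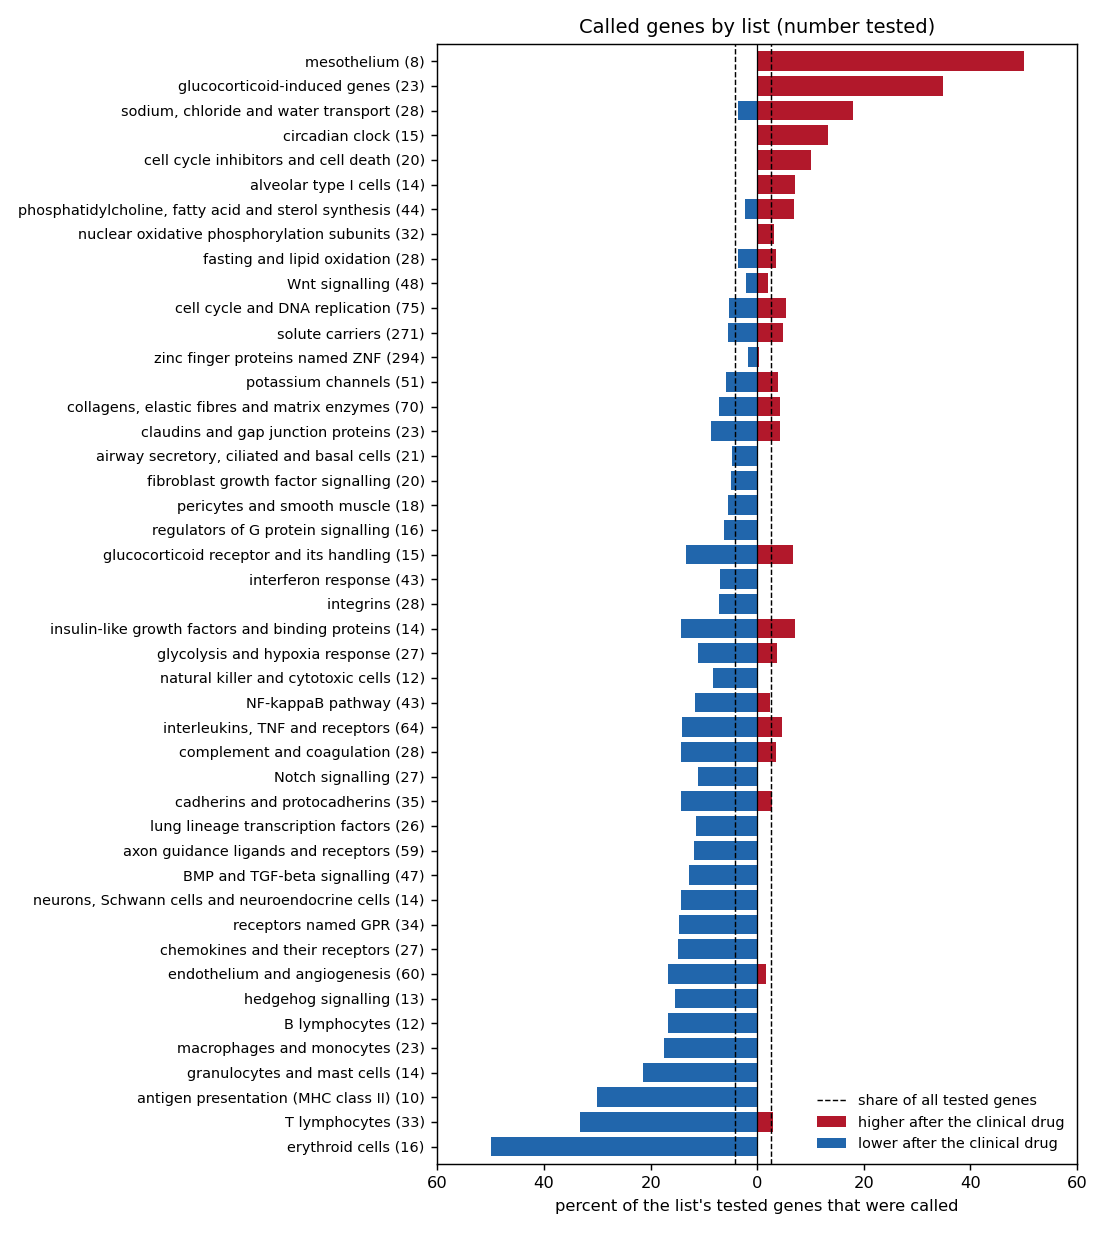
Percent of the tested genes of each list (number in brackets) that were called higher (red, to the right) or lower (blue, to the left) after the clinical drug, for lists of at least 8 tested genes with a called gene; dashed lines mark the shares of all tested genes, 2.62% and 4.11%. The glucocorticoid-induced and transport lists lie on the right, and the T lymphocyte, class II and erythroid lists on the left.

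Most list counts depended on single libraries. Over the 6 fits that each left out 1 library, the number of lower genes ran from 5 to 15 for interleukins, from 1 to 9 for the interferon response, from 2 to 7 for macrophages, from 0 to 9 for airway cells and from 3 to 9 for bone morphogenetic protein signalling. It ran from 0 to 4 for complement, from 1 to 4 for chemokines and for Notch signalling, from 1 to 6 for the matrix, from 3 to 7 for cadherins and from 0 to 3 for glycolysis. The number of higher genes ran from 3 to 6 for transport, from 1 to 5 for mesothelium, for interleukins and for fasting, the last reaching 5 without 17-254. The highest lower counts of the interleukin, interferon, macrophage, airway and bone morphogenetic protein lists were reached without 15-81, as were 5 lower in the Wnt list and 3 in the cartilage list. The lowest were reached without 15-85 in all the lists just named for lower genes, except the chemokine list (2 without 15-85, 1 without 16-131).

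Without both 15-85 and 17-254 the lower counts were 5 for T lymphocytes, 3 for NF-kappaB and for the matrix, 1 for macrophages, lung lineage factors, hedgehog signalling and integrins, and 0 for the glucocorticoid receptor list, B lymphocytes, granulocytes, complement, glycolysis, Notch signalling, erythroid cells and nerve. The higher counts were then 12 for glucocorticoid-induced genes, 5 for fasting, 2 for transport and for the cell cycle, and 0 for the circadian clock and for mesothelium. They were 3 for the matrix, 2 for T lymphocytes, macrophages, complement and glycolysis, and 1 for NF-kappaB and integrins.

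Genes of cells that a piece of lung can hold in varying amounts also differed, and they did so unevenly between libraries. Of 16 erythroid genes 8 were called lower and 16 of 16 were lower in sign, with a median log2 difference of -1.94. RHAG, a membrane glycoprotein of red cells, stood at 0.278, 0 and 0 CPM after the clinical drug, 0.607, 0.354 and 5.98 after Beta-Ac and 0.178, 2.396 and 0 in saline (log2 difference -4.03 ± 1.45 (SE), q = 0.0828), and AHSP, the alpha globin chaperone, at 0.88, 0.374 and 0.563 CPM after the clinical drug, 1.42, 0.778 and 17.7 after Beta-Ac and 0.535, 4.59 and 0.703 in saline. AHSP had a log2 difference of -3.35 ± 1.11 (SE, q = 0.0651). In both, 17-254 was above all others and the saline animal 15-101 came next. Summed CPM of the list was 311.9 to 359.7 after the clinical drug, 256.3 to 1108 after Beta-Ac and 157.7 to 576.3 in saline. Without 17-254 edgeR called 0 of the 16 genes and the median was -0.61, without 15-85 it called 1 and without 15-97 it called 3. With all libraries DESeq2 called 8 and limma-voom 0.

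Airway genes were lower in sign for 21 of 21, beside 9281 of 17644 tested genes, with a median of -0.84. The 1 called, SCGB3A1, was 4.76% of the list, beside 4.11% of all genes called lower. The 21 genes were read in the same pieces of tissue and are not separate observations. Here the medians relative to saline were 0.58 with the clinical drug and 1.60 with Beta-Ac, and the summed CPM was 157.9 to 478.2, 414.4 to 795.2 and 158.6 to 318.7 in the clinical drug, Beta-Ac and saline libraries. Mesothelial genes were higher, with 4 of 8 called: MSLN, at 15.8, 29.5 and 35.4 CPM after the clinical drug, 10.3, 13.2 and 10.5 after Beta-Ac and 30.4, 5.96 and 11.6 in saline (log2 difference 1.24 ± 0.45 (SE), q = 0.0865), ITLN1, at 54.5, 64.8 and 56.3 CPM after the clinical drug, 24.04, 37.9 and 15.6 after Beta-Ac and 19.3, 21.7 and 26.9 in saline (log2 difference 1.18 ± 0.31 (SE), q = 0.0325), BNC1 and PKHD1L1 (1.09). The list's summed CPM was 402.9 to 541.8 after the clinical drug and 402.4 to 484.5 after Beta-Ac, and its most abundant members KRT19 and CLDN15, named after their values were seen, had log2 differences of -0.15 and -0.07. Of 14 nerve and neuroendocrine genes 2 were called, among them STMN2, with a log2 difference of -3.65. After leaving out each library in turn, the call of ITLN1 was kept in every fit and those of SCGB3A1, MSLN, BNC1, PKHD1L1 and STMN2 were lost in 1 to 5 of the 6 fits. Heart and skeletal muscle (12 genes), cartilage (9) and thymus, lymph node and liver (6) had 0 genes called by edgeR and 0 at an unadjusted p under 0.05, and limma-voom called 1 cartilage gene higher. Whether the amount of airway, pleura or blood in the pieces of tissue took part in the other differences was not tested.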

How the data were processed

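Bulk RNA sequencing of fetal lung was analysed. Per the labels and the study's methods, the authors used Bowtie to align 75-base paired-end reads to rhesus build MMUL1.0, obtained gene totals with featureCounts, and deposited whole-number counts that were neither normalized nor filtered. The sources used here differ on the Bowtie version and do not state strandedness, so overlapping and antisense genes cannot be separated.

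A gene was kept if 3 or more of the 15 lung libraries held 7 or more of its reads (17644 of 30246 identifiers, 70.6% of them with a symbol). A quasi-likelihood model with TMM normalization was fitted in edgeR 4.0.16 (R 4.3.3) with 1 mean per group, a prior count of 0.125 for fold changes, and Storey's q. Standard errors were derived from the F statistic. CPM used TMM-scaled library sizes. Genes were called at p under 0.05, q under 0.1 and a fold change of at least 1.5. The procedure was tested on simulated data. Alternatives changed the scaling, filter, thresholds, libraries and tool (DESeq2 1.42.0, limma 3.58.1). An exact permutation test of 3 against 3 libraries cannot go below p = 0.1 and was not used.

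The genes named are the 12 largest called increases and decreases with a symbol, at least 1 CPM in the higher group and no overlap, the called members of each list (all where at most 6 were called, otherwise the 3 largest each way), and set receptor, glucocorticoid and surfactant genes. Some genes that this rule names are not reported here. The comparison and the 55 gene lists were chosen with earlier results of these data known. Of 1647 list entries, 24.7% had no match in the table and were not analysed here.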

Additional observations from a re-analysis of the deposited data

Results flagged for a closer look

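Of the 24 genes with the largest differences, 5 differed between the early and the 5-day comparison of the same drugs, by edgeR's test of the early minus the 5-day log2 difference, a contrast chosen after the data were seen. The 24 genes were picked for a large early difference, which enters this contrast and favours it in the same direction, so the values are a description. For MFSD2A, the lysophosphatidylcholine transporter, the clinical drug was 1.79 above Beta-Ac early and -1.97 from it at 5 days, a difference of 3.76 (q = 0.0301). RASL10B went from 2.19 early to -0.56, a difference of 2.75 (q = 0.0307), and LGI3 from 2.03 to 0.08, a difference of 1.95 (q = 0.0495). CCR7 went from -2.42 to -0.15, a difference of -2.26 (q = 0.0604), and PSCA from -4.44 to -0.59, a difference of -3.84 (q = 0.0977). Each 5-day group held 3 other animals.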

How the results depend on the processing

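The counts of genes higher and lower were 463 and 726. They were 462 and 719 with RLE size factors, 448 and 679 with DESeq2 and 478 and 636 with limma-voom, and in no alternative was a called gene called in the opposite direction. Smaller counts came from no filter (389 lower), Benjamini-Hochberg adjustment (451 lower), a fold of at least 2 (193 and 397), a fit of the 6 libraries alone (168 and 117) or with saline (262 and 293), and a test against the fold threshold itself with glmTreat (10 and 9), and with no fold threshold 1318 were higher. With the animal-number prefix as a term they were 0 and 0 (1762 genes at an unadjusted p under 0.05), and no other tool was run with that term. Without 15-85 and 17-254, chosen after the data were seen, 299 were lower. Leaving out 1 library gave 340 to 592 higher and 329 to 1393 lower, the extremes coming without 15-85 and without 15-81. Of the 162 named calls, 82 were lost without 15-85, 68 without 17-254, 56 without 15-97, 49 without 16-123, 48 without 16-131 and 26 without 15-81. Without both 15-85 and 17-254, 95 were lost. The fit of the 6 libraries alone lost 117, among them FKBP5, MFSD2A, NR3C2, CIITA, CD74, RELB and EDNRB. That fit called 3 glucocorticoid-induced genes higher (8 in the main fit). It called 3 T lymphocyte, 5 endothelial and 0 class II genes lower (11, 10 and 3 in the main fit). Of 3078 alternative values of those 162 genes, 2172 kept direction and call, 905 lost the call and 1 reversed (CNDP1, -2.29 with the prefix term). Of 171 values of 9 named genes that were not called, 158 kept direction and stayed uncalled, 1 was called anew (ZBTB16, 1.34, without 15-85 and 17-254) and 12 changed sign. NKX2-1 rounded to 0 with upper quartile factors. With the prefix term ZBTB16 was -0.85, PER1 -0.39, NKX2-1 -0.45, SFTPD 0.65 and NR3C1 0.25. SFTPD was 0.04 without 15-85 and 17-254, and with single libraries left out it reached 0.03 and 0.04, NKX2-1 -0.03 and -0.11 and SFTPB -0.04. The causes were not tested. No paired analysis was possible because the animal numbers in the labels do not match across groups.

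List medians moved with the prefix term to 0.25 (glucocorticoid receptor), -1.50 (T lymphocytes), -1.30 (B lymphocytes), -0.14 (granulocytes, -1.20 with limma-voom), -0.24 (NF-kappaB), -0.31 (endothelium), -0.41 (pericytes), -2.83 (airway), 0.20 (sodium, chloride and water transport), -0.15 (ribosomal proteins), -0.33 (immediate early genes), -3.31 (erythroid), -0.86 (neurons), -0.01 (solute carriers), -0.12 (potassium channels) and -0.67 (HOX). Without 15-85 and 17-254 they were 1.03 (glucocorticoid-induced), -0.12 (NF-kappaB), -0.23 (hedgehog), -0.13 (matrix), -0.67 (erythroid), -0.06 (thymus, lymph node and liver), -0.36 (potassium channels) and -0.40 (HOX). Leaving out single libraries gave ranges of 0.38 to 0.95 (glucocorticoid-induced), -0.09 to 0.10 (glucocorticoid receptor), -0.20 to -0.11 (NF-kappaB), -0.46 to -0.21 (interleukins), -0.37 to 0.10 (interferon response), -0.32 to -0.17 (endothelium), -0.11 to 0.24 (type II cells), -0.36 to -0.15 (Notch), -0.29 to -0.01 (hedgehog), -0.23 to -0.09 (axon guidance), -0.13 to -0.02 (matrix, -0.10 without 16-123), -2.33 to -0.61 (erythroid), -0.47 to -0.16 (cadherins), -0.08 to -0.01 (solute carriers), -0.27 to -0.08 (potassium channels) and -0.27 to 0.20 (HOX). Leaving out a saline animal left 5 to 25 higher genes with saline above both drugs and 18 to 36 lower genes with saline below both (32 without 15-101).

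With 3 animals per group, p-values rest on a spread shared across 15 libraries, and nothing in the labels gives the fetuses' litters or batches beyond the animal number. Dose, ester, time and animal-number prefix changed together, and by the paper's table of animals fetal sex was not balanced between the drug groups. Genes below about 1 CPM rest on few reads.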

Other observations

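Gene families outside the lists of function gave further values. Of 271 tested solute carriers 13 were higher (4.8%) and 15 lower (5.54%) after the clinical drug, beside 2.62% and 4.11% of all genes. The higher count was 8 without 15-85 or without 17-254, the lower count was 4 without 15-85, 5 without 15-97, 8 without 16-123 and 9 without 17-254, and both were 3 without 15-85 and 17-254. SLC27A6, a fatty acid transport protein, was at 75.1, 23.03 and 18.6 CPM after the clinical drug and 14.1, 15.96 and 15.2 after Beta-Ac (log2 difference 1.38 ± 0.49 (SE), q = 0.0821, edgeR), with 15-81 standing apart. SLC8A3, a sodium-calcium exchanger, was at 0.0463, 0.0748 and 0.125 CPM after the clinical drug and 0.607, 0.425 and 1.78 after Beta-Ac (log2 difference -3.58 ± 0.88 (SE), q = 0.025), and SLC7A13, an amino acid transporter, was at 0.0232, 0 and 0 CPM after the clinical drug, 0.202, 0.248 and 0.0482 after Beta-Ac and 0.833, 0.753 and 1.05 in saline, where the clinical drug libraries held 1 read in all. Of 51 potassium channel genes 2 were higher (3.92%) and 3 lower (5.88%), beside 2.62% and 4.11% of all genes. KCNS3, a silent subunit that modifies other channels, stood at 11.2, 14.4 and 15.1 CPM after the clinical drug, 42.2, 41.6 and 24.3 after Beta-Ac and 43.7, 44.8 and 48.2 in saline (log2 difference -1.42 ± 0.19 (SE), q = 0.00147), and its clinical drug libraries lay below all others. KCNMB4, a subunit of the large-conductance calcium-activated channel, was at 36.98, 31.7 and 38.2 CPM after the clinical drug, 18.7, 22.8 and 24.9 after Beta-Ac and 19.9, 17.1 and 21.3 in saline (log2 difference 0.69 ± 0.12 (SE), q = 0.00666), while KCNA5 and KCNJ1 were lower (-0.87 and -1.61 on the log2 scale).

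Of 34 tested G protein-coupled receptors named GPR 5 were lower and 0 higher, and 2 were lower without 15-85 and 17-254. Beside GPR183 they included GPR182, a receptor of lymphatic and sinusoidal endothelium, at 4.19, 2.99 and 4.07 CPM after the clinical drug, 6.38, 7.43 and 6.32 after Beta-Ac and 7.85, 10.1 and 7.83 in saline. GPR182 had a log2 difference of -0.83 ± 0.21 (SE, q = 0.0265). GPR4, a proton-sensing receptor of endothelium, was at 0.9495, 1.42 and 1.75 CPM after the clinical drug, 1.77, 3.08 and 3.71 after Beta-Ac and 4.699, 4.52 and 3.26 in saline. GPR4 had a log2 difference of -1.09 ± 0.33 (SE, q = 0.0511). GPR171 was at 0.579, 0.1495 and 0.313 CPM after the clinical drug and 0.557, 1.42 and 0.964 after Beta-Ac. GPR171 had a log2 difference of -1.36 ± 0.45 (SE, q = 0.0642). The saline libraries exceeded each clinical drug library for these 3. Of 294 zinc finger genes named ZNF 1 was higher (0.34%) and 5 lower (1.7%), beside 2.62% and 4.11% of all genes, and 18 were lower without 15-81. ZNF611, the higher gene, stood at 77.6, 82.1 and 90.8 CPM after the clinical drug, 38.9, 48.3 and 61.1 after Beta-Ac and 32.7, 26.01 and 28.7 in saline (log2 difference 0.76 ± 0.14 (SE), q = 0.00836), with Beta-Ac between saline and the clinical drug. ZNF423, ZNF618, ZNF541, ZNF460 and ZNF831 were lower, at log2 differences from -0.61 to -1.99. RGS5 was the 1 of 16 regulators of G protein signalling called, HOXB1 the 1 of 6 HOX genes (log2 difference -0.96 ± 0.34 (SE), q = 0.0803), and CLDN2 joined GJA5 as the 2 lower of 23 claudins and gap junction proteins. Of 10 dual specificity phosphatases edgeR called 0, with 1 at an unadjusted p under 0.05, and DESeq2 and limma-voom called 0. In fits that each left out 1 library, the calls of GPR183, GPR182, ZNF611 and RGS5 were kept in every fit and those of GPR4, GPR171, ZNF423, ZNF618, ZNF541, ZNF460, ZNF831, HOXB1, CLDN2 and GJA5 were lost in 1 to 4 of the 6 fits.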
